A study of Mus musculus with 4 samples.

Results

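In mouse bone marrow, haematopoietic stem cells labelled LT-HSC (long-term) were compared gene by gene with those labelled ST-HSC (short-term), 1 array of each. A gene entered where a probe set of the array was annotated to it alone and at least 1 of the 2 signals was 120 or more. Of 45101 probe sets, 21284 met this, and they stood for 12425 genes. The 2 arrays belong to a series of 4 that also holds 1 array of granulocytes and 1 of haematopoietic progenitor cells (HPC), all measured as cell types used as nuclear donors for cloning. For both types, beads against c-Kit enriched the cells, which were then sorted for c-Kit and Sca-1. Cells with the myeloid antigens Gr-1 or CD11b, the B-cell antigen B220, the T-cell antigens CD3, CD4 or CD8, or the erythroid antigen Ter119 were gated out. Dead cells were excluded with DAPI. The LT-HSC were CD34- and the ST-HSC were CD34+, so this surface protein is the only stated difference between them. Cells of both types were thawed, picked by their appearance and packed, 50 or 100 together, into empty zonae pellucidae, the coats of eggs. RNA of 50 to 200 cells was amplified linearly in 2 rounds and labelled with biotin. The labels give no strain, age or sex of the mice, and no treatment or transgene. With 1 array a side, no value has a replicate check and no test between the cell types was possible.

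Haematopoietic stem cells are the source of all blood lineages. In mouse marrow, the cells with c-Kit and Sca-1 that lack CD34 are known for rebuilding blood for the life of a transplanted host and for dividing rarely. The cells with CD34 rebuild it for a limited time, divide more often and include multipotent progenitors that have begun to express genes of the myeloid and lymphoid lines.

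The deposited signals are linear, and signals under 120 were set to 120 before taking log2. A log2 difference is LT-HSC minus ST-HSC throughout, so 1 means 2-fold higher in LT-HSC and -1 means 2-fold higher in ST-HSC. Where 1 side lay under 120, the fold is a lower bound and is written as at least that much. The median difference over the 12425 genes was -0.004 and the SD 0.83. The only measure of error available was the disagreement between probe sets of 1 gene on the same 2 arrays, which had a pooled SD of 0.64 over 3878 genes. It was 0.70 for genes with a mean signal from 250 to 1000 and 0.35 above 4000, and it does not hold the spread between animals, sorts or amplifications. Of the control probe sets, those for 18S ribosomal RNA were much brighter on the LT-HSC array, with 16644 against 1333 at the 5′ end, 11235 against 711.7 in the middle and 2004 against 716.8 at the 3′ end. The 3′ to 5′ signal ratio, which grows as transcripts are shortened, was 14.6 on the LT-HSC array and 16.1 on the ST-HSC array for Actb, and 14.9 and 12.4 for Gapdh. The part of ribosomal RNA carry-over in the differences below was not tested.

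Promoters are shown for 5 genes picked from the strongest differences and the cell division genes described below. They are S100a8, the leading gene of LT-HSC, Mpo, the leading gene of ST-HSC, and the 3 mitosis genes with the largest difference toward ST-HSC among those with a listed promoter. Each run is the RefSeq sequence of build GRCm38.p6 from 250 bases before the transcription start to 50 bases from it, read 5′ to 3′ on the gene's strand. Capitals mark matches, on either strand, to 7 motifs: the TATA box TATAAA, the CCAAT box, the GC box GGGCGG, the E-box CACGTG, the cAMP response element TGACGTCA, the GATA motif AGATAA and the ETS motif TTCCGG. None of these lies within another, although matches may overlap.
S100a8, chr3:90668821-90669120, plus strand: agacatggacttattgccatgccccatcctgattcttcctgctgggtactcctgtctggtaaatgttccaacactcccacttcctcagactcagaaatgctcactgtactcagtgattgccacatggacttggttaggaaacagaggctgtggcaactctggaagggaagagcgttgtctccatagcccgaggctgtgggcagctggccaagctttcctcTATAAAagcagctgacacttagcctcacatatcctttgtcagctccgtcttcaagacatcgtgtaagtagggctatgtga
Mpo, chr11:87793534-87793833, plus strand: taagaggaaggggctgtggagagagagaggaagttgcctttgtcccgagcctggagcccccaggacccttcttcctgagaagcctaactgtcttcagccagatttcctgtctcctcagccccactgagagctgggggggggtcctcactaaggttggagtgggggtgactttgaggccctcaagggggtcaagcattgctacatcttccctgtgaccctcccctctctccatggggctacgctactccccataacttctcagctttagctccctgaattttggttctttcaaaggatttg
Mad2l1, chr6:66534971-66535270, plus strand: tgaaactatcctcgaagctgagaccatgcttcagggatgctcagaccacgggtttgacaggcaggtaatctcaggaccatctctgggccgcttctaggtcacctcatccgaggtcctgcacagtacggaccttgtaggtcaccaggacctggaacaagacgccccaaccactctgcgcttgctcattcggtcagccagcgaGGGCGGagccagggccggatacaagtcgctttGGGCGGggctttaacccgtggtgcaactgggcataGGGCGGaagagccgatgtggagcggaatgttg
Kif11, chr19:37376132-37376431, plus strand: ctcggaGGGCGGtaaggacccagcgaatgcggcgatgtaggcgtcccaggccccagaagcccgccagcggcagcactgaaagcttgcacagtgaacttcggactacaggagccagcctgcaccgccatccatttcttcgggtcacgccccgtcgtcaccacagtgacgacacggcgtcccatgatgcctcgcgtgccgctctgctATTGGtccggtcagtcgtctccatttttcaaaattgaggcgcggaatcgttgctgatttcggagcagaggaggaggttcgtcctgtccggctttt
Ect2, chr3:27153829-27154128, minus strand: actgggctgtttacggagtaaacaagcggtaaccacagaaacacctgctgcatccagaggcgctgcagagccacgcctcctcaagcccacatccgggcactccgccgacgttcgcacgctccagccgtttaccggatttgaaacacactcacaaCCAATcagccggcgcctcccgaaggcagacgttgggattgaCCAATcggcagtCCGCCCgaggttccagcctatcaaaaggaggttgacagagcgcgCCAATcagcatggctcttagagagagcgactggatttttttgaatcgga
The S100a8 window held TATAAA with its first base at position -30 from the start site. The Mpo window held none of the 7 motifs. Mad2l1 held GGGCGG at 3 places, and Kif11 held CCAAT on the reverse strand at position -45 and 1 GGGCGG. Ect2 held CCAAT at positions -96, -55 and 2 and GGGCGG on the reverse strand at position -43.

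Genes at least 4-fold apart numbered 243 higher in LT-HSC, 1.96% of all genes, and 129 higher in ST-HSC, 1.04%. At 2-fold the counts were 1331 higher in LT-HSC (10.7%) and 1013 higher in ST-HSC (8.15%). These percentages are the background for every list below. Among the genes past 4-fold, 65.3% were higher in LT-HSC. That share was 78.4% when the arrays were scaled to their hybridization controls, which moved the median of all genes by 0.18, and 58.0% when they were scaled to the median of the members, which moved it by -0.11. The lower signal was under 120 for 119 of the 243 and for 35 of the 129. Most of the large differences came from genes with a mean signal from 250 to 1000, of which 7.05% passed 4-fold, against 0.60% under 250, where the floor limits the fold, 1.47% from 1000 to 4000 and 0.34% above 4000. A second probe set existed for 124 of the 243 genes, and all others of the gene had the same sign for 93 of these, or 75%. The share was 34 of 49 (69.4%) for the genes higher in ST-HSC and 51.6% over all 5324 genes with several probe sets. A probe set with 1 signal under 120 could enter only through its other signal, so this entry rule fixed its sign. The shares are therefore no independent check of the differences, and the part of the rule in them was not tested.

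**Figure D1:**
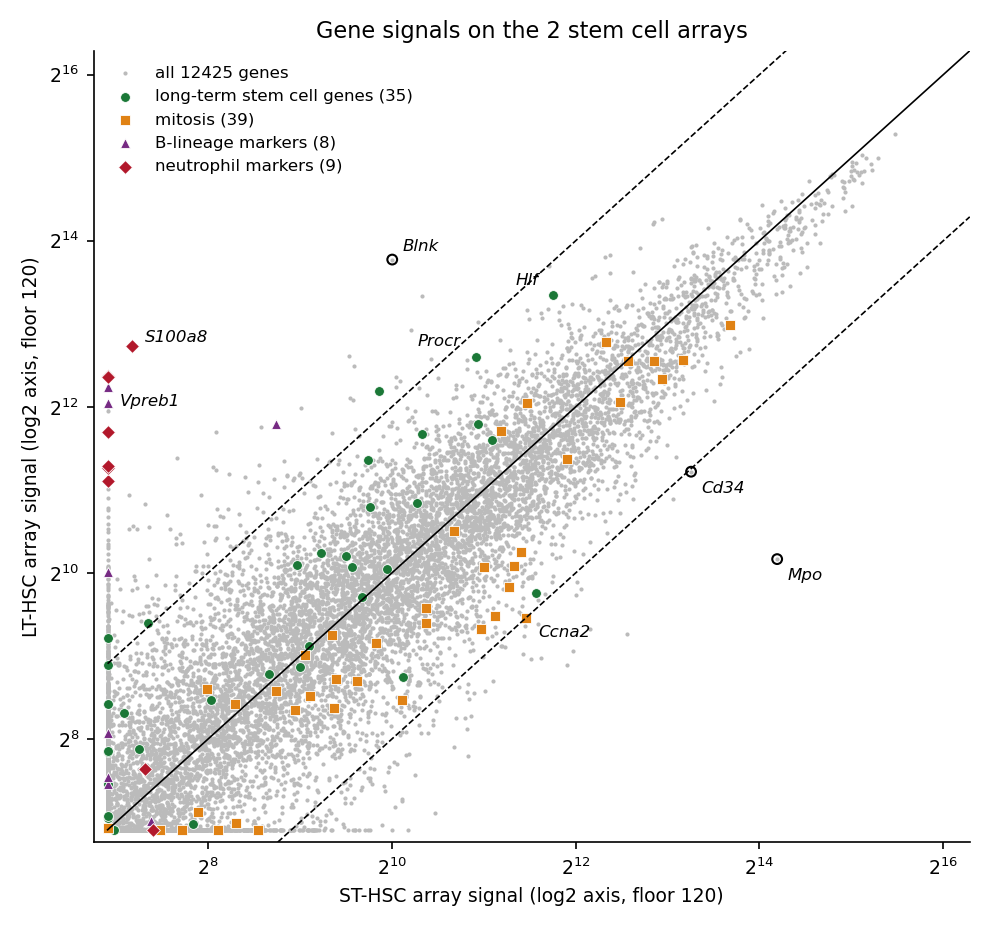
Signal of each of 12425 genes on the ST-HSC array (horizontal) and the LT-HSC array (vertical), both on log2 axes with values under 120 set to 120; the solid line marks equal signals and the dashed lines 4-fold. The neutrophil markers S100a8, Ngp and Chil3 lie far above the line at the left, most of the stem cell genes lie above it and most of the mitosis genes below it.

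The sorting antigens show how far the labels hold. Cd34, the sialomucin that divided the 2 gates, had a signal of 2384 on the LT-HSC array and 9778 on the ST-HSC array, 4.10-fold higher in ST-HSC (-2.04). The signal was thus lower, but not absent, in the sample gated without the surface protein. Whether it came from all of its cells or from a few with CD34 was not tested. Kit, the receptor used for enrichment, had 5416 and 3144 (0.78). Ptprc, the pan-leukocyte phosphatase CD45, had 7066 and 7178 (-0.02), the smallest difference among the antigens. Of the excluded lineage antigens, Itgam (CD11b) had 7.9 and 19.4 and Cd4 33.9 and 30.9, all under 120. Cd3e had 40.2 and 155.4. Cd8a had 320.0 and 158.1 (1.02), but its 3 other probe sets all had the opposite sign. Ly6a, which encodes Sca-1, and Ly6g were not analysed here.

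Markers of each gate were also listed on their own. The 13 measured markers of long-term cells all belong to the list of long-term stem cell genes below. The counts of the 2 lists are thus not independent. Of 14 markers of long-term cells, 13 were measured and all 13 were higher in LT-HSC, 8 of them at least 2-fold, with a median of 1.23. The longer list also holds 5 genes higher in ST-HSC, among them Angpt1 and Mycn, and none of these is among the 13. Lists were chosen with earlier results of these data known, so the 13 are no independent check of the gate. Of 6 markers of ST-HSC and multipotent progenitors, 5 were measured and all 5 were higher in ST-HSC, 3 at least 2-fold (Cd34, Flt3 and Cd48), with a median of -1.07. Cd34 itself defined the gates, and the differences of Dntt and Cd27 (-0.47 each) were under the yardstick SD of 0.64. So were those of the long-term markers Ctnnal1 (0.10), Slamf1 (0.44), Mllt3 (0.50), Ndn (0.52) and Mecom (0.56). That SD is pooled over all signals. The Dntt difference exceeded in size the 0.35 of genes above 4000, and that of Mecom was about the 0.55 of genes from 1000 to 4000. The 1 other probe set of Slamf1 and 2 of the 7 others of Ndn had the opposite sign. The longer list of multipotent progenitor genes, which shares members with the ST-HSC markers, had a median of 0.01.

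The genes of long-term stem cells were mostly brighter on the LT-HSC array. Of 35 measured, 30 were higher there, 14 at least 2-fold (40.0%) and 3 at least 4-fold, while 2 (5.71%) were at least 2-fold higher in ST-HSC, and the list's median was 0.70. Hlf, a transcription factor that maintains stem cells, had 10387 in LT-HSC and 3458 in ST-HSC, 3.0-fold. Procr, the protein C receptor used to isolate stem cells, had 6229 and 1931, 3.23-fold. Pdzk1ip1, a small membrane protein of long-term cells, had 4688 and 932.6, 5.03-fold. Cdkn1c, the cyclin-dependent kinase inhibitor p57, had 673.3 and 162.6, 4.14-fold. Nupr1, a stress-induced nuclear protein, had 593.0 and 56.4, at least 4.94-fold. These 3 were the members past 4-fold.

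Several others of the list lay between 2-fold and 4-fold. The endothelial adhesion molecule Esam had 2637 and 855.3, Fgd5, a guanine nucleotide exchange factor active in stem cells, 3277 and 1284, and Vwf, the von Willebrand factor, 1097 and 499.0. Mecom, a zinc finger factor that stem cells need, was 1.47-fold higher in LT-HSC, with 1829 and 1242, and Mllt3 1.42-fold, with 1078 and 760.9. Those differences were under the pooled yardstick SD of 0.64, and that of Mecom (0.56) was about the 0.55 of genes from 1000 to 4000. The signals of Mecom on the HPC array (68.0) and of Ctnnal1 (14.7 on HPC, 1062 and 989 on the stem cell arrays) lay far below both stem cell arrays. Ptpn21 was nearest to 0 among the members above 120 on both arrays, with 558.6 and 548.8. The exceptions were Angpt1, the ligand of the receptor Tek, with 865.3 in LT-HSC and 3047 in ST-HSC (3.52-fold higher in ST-HSC), and Mycn, with 429.9 and 1113 (2.59-fold). Tek itself went the other way, with 319.4 and 136.0.

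Transcription factors of blood formation differed little as a group. Of 42 measured, 3 (7.14%) were at least 2-fold higher in LT-HSC and 3 (7.14%) in ST-HSC, near the background, and none reached 4-fold. Bcl11a, a repressor needed for lymphoid fate and for fetal globin silencing, differed most of these, with 8538 and 2891 (2.95-fold). All 3 of its other probe sets were higher in LT-HSC too, although the entry rule fixed the sign of the one with 357.9 and 110.0. Tal1, a master factor of stem and erythroid cells, had 6345 and 3015, and Hoxb4 334.2 and 102.4. Hhex, with 2712 and 6152, Sox4, with 3451 and 7057, and Cebpa, the factor that opens the granulocyte programme, with 287.9 and 580.1, were higher in ST-HSC, although 2 of the 3 other probe sets of Sox4 had the opposite sign. Ldb1 was nearest to 0, with 254.7 and 261.4.

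The 15 leading genes of LT-HSC were drawn from those whose LT-HSC signal reached the array's 75th percentile and whose other probe sets agreed in sign. They ranged from at least 15.9-fold to 46.9-fold, and 14 of the 15 are bounds because the ST-HSC signal lay under 120. Of these 15, 7 are neutrophil markers. S100a8, a calcium-binding protein of neutrophils, had 6783 in LT-HSC and 144.5 in ST-HSC, 46.9-fold. Ngp, a granule protein, had 5299 and 111.1, at least 44.2-fold, and Chil3, a chitinase-like protein, 5265 and 3.8, at least 43.9-fold. The others were Lcn2 (3332 and 4.8), Ltf (2502 and 18.4), Camp (2451 and 54.7) and S100a9 (2203 and 22.9).

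Early B-lineage genes formed the other large block of leading genes. Vpreb1 and Igll1 encode the surrogate light chain of the pre-B cell receptor. Vpreb1 had 4815 in LT-HSC and 15 in ST-HSC, at least 40.1-fold, and Igll1 had 4234 and 29.1, at least 35.3-fold. Pou2af1, a B-cell coactivator, had 4086 and 59.9, at least 34.1-fold. Irf4, an interferon regulatory factor of lymphocytes, had 3337 and 18, at least 27.8-fold. Rag1, the recombinase of antigen receptor genes, had 2062 and 58.7, at least 17.2-fold. All 5 were thus well measured on one array and under 120 on the other. The second probe sets of Igll1 (0.60) and Irf4 (0.72) were higher in LT-HSC by far less than the first. Their ST-HSC signals, 88.5 and 117.6, were under 120, so the entry rule fixed their sign.

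The last 3 leading genes belonged to other groups. Ccl5, a chemokine of T and NK cells, had 3202 and 114.3, at least 26.7-fold. Gja1, the gap junction protein connexin 43, had 2156 and 19.8, at least 18-fold, and its 4 other probe sets were all at least 2-fold higher in LT-HSC. The ST-HSC signals of those 4 were under 120 too, so the entry rule fixed their sign, though not their size. Slc40a1, the iron exporter ferroportin, had 1906 and 56.3, at least 15.9-fold. On the HPC array most of the lymphoid genes were also bright, with 2532 for Vpreb1, 1862 for Igll1, 1178 for Pou2af1, 1620 for Irf4 and 1430 for Ccl5 but 139.9 for Rag1, while the 7 neutrophil markers stayed between 7.5 and 169.8.

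**Figure D2:**
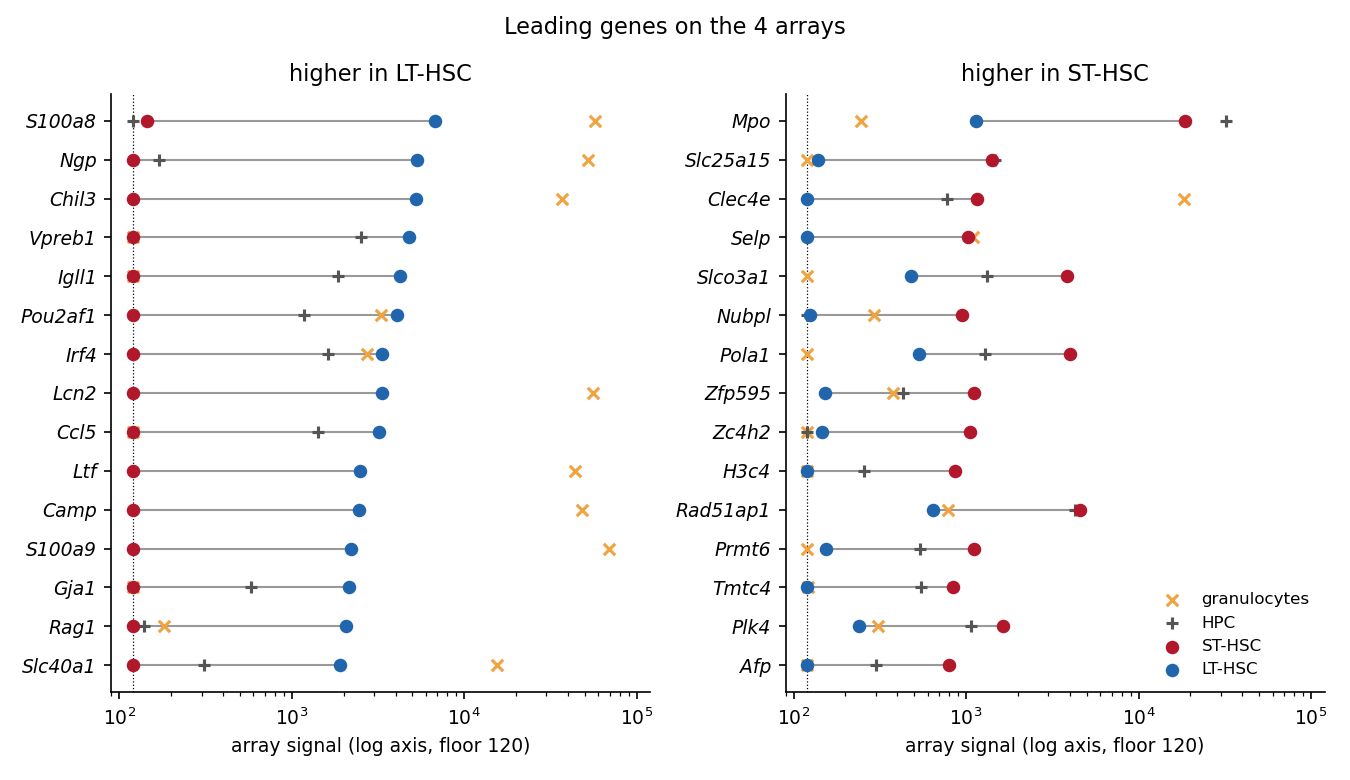
Signals of the 15 leading genes in each direction on the LT-HSC, ST-HSC, HPC and granulocyte arrays (log axis, values under 120 set to 120, 1 array per point, grey line from LT-HSC to ST-HSC). In the left panel the ST-HSC points lie at or beside the floor, and the 7 neutrophil markers and Slc40a1 have granulocyte signals of 15490 or more; in the right panel Mpo has the highest ST-HSC and HPC signals.

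Because marrow sorts can hold other cells, the markers of those cells were examined on both arrays. Of 11 neutrophil markers with a probe set, 8 reached 120 on the LT-HSC array and 3 on the ST-HSC array, and their summed signals were 28211 and 802. On the granulocyte array all 11 reached 120 and the sum was 493944. The LT-HSC signal was 11.9% of the granulocyte signal for S100a8, 14.2% for Chil3, 10.1% for Ngp and 3.19% for S100a9, the lowest of the 7. The other 4 markers did not share the difference. Mmp8, the neutrophil collagenase, had 77.4 in LT-HSC and 84.6 in ST-HSC against 45533 in granulocytes, or 0.17% of it in LT-HSC. Mmp9 had 65.8 and 169.5 against 48874, Il1b 198.6 and 159.7 against 33532, and the chemokine receptor Cxcr2 34.3 and 28.1 against 2113. In RNA from pooled cells, a few cells of another type and a low level in every cell cannot be told apart. The part of such cells in the differences was not tested.

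Of 9 B-lineage markers, 8 reached 120 in LT-HSC and 2 in ST-HSC, with sums of 14475 and 845, and on the HPC array 7 did, with a sum of 7367. Ebf1, a factor that commits cells to the B lineage, had 1031 and 2.7, at least 8.59-fold, and its 3 other probe sets were all higher in LT-HSC. Cd79b, a signalling chain of the B-cell receptor, had 3562 and 428.1, 8.32-fold. Pax5, which holds cells in the B lineage, had 186.9 and 34.3. Of the markers of later B cells, Ms4a1, which encodes CD20, had 71.4 and 85.8 and Cd22 128.8 and 166.8. Of 12 T and NK markers, 6 and 4 reached 120, with sums of 5570 and 2034. Gzma, a granzyme, had 918.0 and 58.7, at least 7.65-fold, while the defining markers Cd3d, Cd3g and Cd4 were under 120 on both arrays, Cd3e reached 120 in ST-HSC and Cd8a on both, as given above. The part of lymphoid cells in the gate was not tested.

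**Figure D3:**
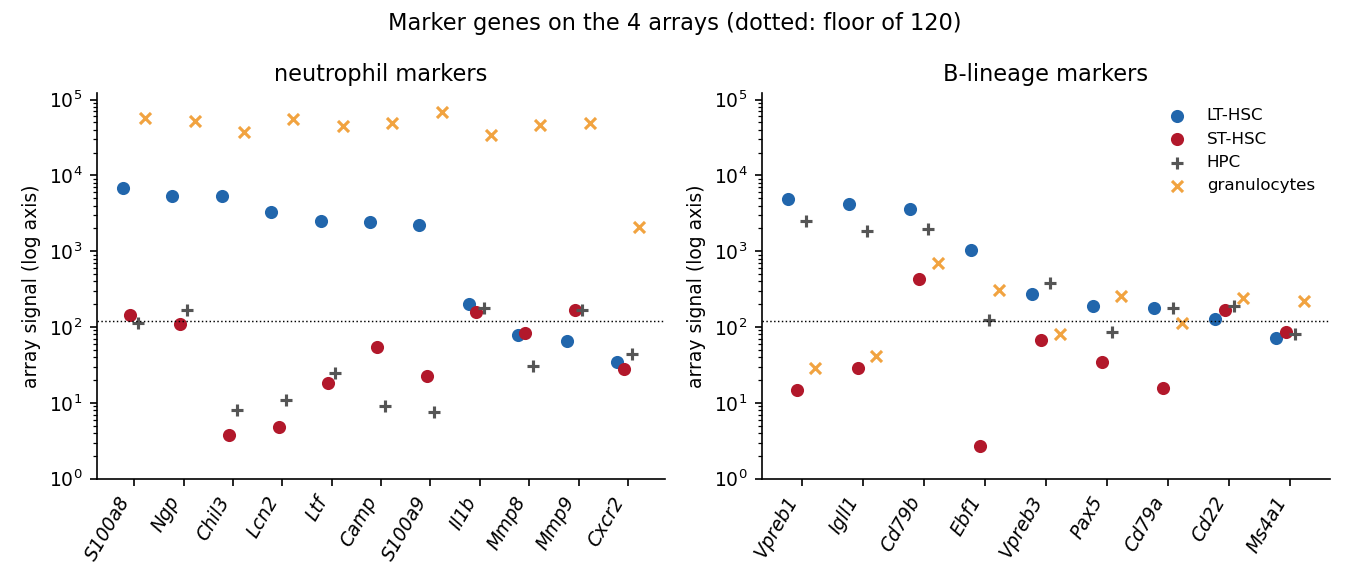
Signals of 11 neutrophil markers (left) and 9 B-lineage markers (right) on the 4 arrays, on a log axis with a dotted line at 120, 1 array per point. In the left panel 7 LT-HSC points lie between 2203 and 6783, under granulocyte points of 36963 to 68994, while Il1b, Mmp8, Mmp9 and Cxcr2 lie near or under the line on both stem cell arrays.

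Genes of multipotent and lymphoid-primed progenitors divided between the arrays. Of 27 measured, 9 were at least 2-fold higher in LT-HSC (33.3%) and 3 in ST-HSC (11.1%), and the median was 0.01. Flt3, the receptor that marks the step away from long-term stem cells, had 3156 in LT-HSC and 6634 in ST-HSC, 2.10-fold. Cd48, a surface protein that long-term cells lack, had 269.5 and 1274, 4.73-fold. Tespa1, a thymocyte protein, had 103.7 and 564.3, at least 4.70-fold higher in ST-HSC. Dntt, the terminal transferase of lymphoid-primed cells, was bright on both, with 11455 and 15859, and Cd27 had 1171 and 1624. Those 2 differences were under the pooled yardstick SD of 0.64, but that of Dntt (-0.47) exceeded in size the 0.35 of genes above 4000. The 3 members past 4-fold in LT-HSC were Rag1, Blnk and Ccr9. Blnk, an adaptor of the pre-B cell receptor, had 14001 and 1027, 13.6-fold, and Ccr9, a homing receptor of thymus-bound cells, had 1529 and 326.3, 4.69-fold. Ighm, the heavy chain locus, was nearest to 0, with 7223 and 7249.

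Genes of granulocyte and monocyte progenitors were more often higher in ST-HSC. Of 24 measured, 15 were higher in ST-HSC and 9 in LT-HSC, 8 (33.3%) at least 2-fold in ST-HSC and 0 in LT-HSC, where up to 2 were under other scalings, and the median was -0.48. Mpo, the myeloperoxidase of primary granules, led the genes higher in ST-HSC, with 1149 in LT-HSC and 18718 in ST-HSC, 16.3-fold. Its HPC signal was higher still, 32023, and its granulocyte signal was 246.1. Csf3r, the receptor of granulocyte colony-stimulating factor, had 550.7 and 2404, 4.37-fold. Ctsg, the cathepsin of the same granules, had 188.0 and 670.9, and Csf1r, the macrophage growth factor receptor, 209.8 and 522.8. The granule protease Prtn3 had 2164 and 2425, with 12638 in HPC, and Elane, another, had 89.3 and 175.2, at least 1.46-fold higher in ST-HSC, with 2181 in HPC. The members furthest toward LT-HSC were Ms4a3 (372.2 and 199.9), Anxa3 (290.7 and 165.1), Irf8, a factor of monocyte fate (3320 and 2123), and Ctsc (3536 and 2265). Alas1 was nearest to 0, with 859.0 and 913.0.

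Of 20 measured genes of megakaryocyte and erythroid progenitors, 5 (25.0%) were at least 2-fold higher in LT-HSC and 2 (10.0%) in ST-HSC, with a median of 0.04. Both metallothioneins were higher in LT-HSC: Mt1 had 1509 and 145.3, 10.4-fold, and Mt2 1824 and 158.7, 11.5-fold. Tspan33, a tetraspanin, had 1068 and 36.5, at least 8.90-fold, and its 3 other probe sets were higher in LT-HSC. The platelet chemokine Pf4 was higher in ST-HSC, with 471.7 and 1444, 3.06-fold, and so was Slc14a1, a urea transporter, with 180.6 and 867.7, 4.81-fold, although its other probe set had 179.8 and 161.6. Apoe was nearest to 0, with 761.0 and 759.8. Among platelet markers, 6 of 10 reached 120 in LT-HSC and 9 in ST-HSC, with sums of 2988 and 4091. Ppbp, another platelet chemokine, had 39.3 and 304.6, at least 2.54-fold higher in ST-HSC.

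The 15 leading genes of ST-HSC ranged from 16.3-fold to at least 6.68-fold, and 5 of them are bounds. After Mpo came Slc25a15, a mitochondrial ornithine carrier, with 137.9 in LT-HSC and 1416 in ST-HSC, 10.3-fold. Clec4e, a pattern recognition receptor of myeloid cells, had 11.8 and 1155, at least 9.62-fold, and Selp, the adhesion molecule P-selectin, 2.4 and 1026, at least 8.55-fold. The other probe sets of Selp lay at -0.93 and -0.18. Slco3a1, an organic anion transporter, had 476.4 and 3844, 8.07-fold, and both of its other probe sets were at least 2-fold higher in ST-HSC. Pola1, the catalytic subunit of DNA polymerase alpha, had 534.4 and 4025, 7.53-fold. Rad51ap1, a DNA repair protein, had 640.3 and 4578, 7.15-fold, with the 2 other probe sets also higher in ST-HSC. The sign of the one with 101.9 and 172.3 was fixed by the entry rule. Plk4, the kinase that starts centriole duplication, had 240.2 and 1640, 6.83-fold, though its other probe sets lay at -0.91 and -0.10. The rest were Nubpl, Zfp595, Zc4h2, H3c4, Prmt6, Tmtc4 and Afp, from at least 6.68-fold to 7.63-fold.

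Genes of cell division were mostly brighter in ST-HSC. Of 39 measured mitosis genes, 33 were higher in ST-HSC, 10 of them at least 2-fold (25.6%), and 0 were at least 2-fold higher in LT-HSC, with a median of -0.67. Ccna2, the cyclin of S phase and G2, had 701.4 and 2822, 4.02-fold, but its second probe set had 769.9 and 763.4. Mad2l1, a spindle checkpoint protein, had 712.7 and 2236, 3.14-fold, and Kif11, the kinesin that separates spindle poles, 640.5 and 2005, 3.13-fold. Ect2, the exchange factor that drives cleavage, had 99.9 and 373.7, at least 3.11-fold. Ccnb2, a mitotic cyclin, had 908.8 and 2474, and Tpx2, a spindle assembly factor, 355.1 and 1107. Of the other probe sets, 1 of 2 for Kif11 and 1 of 3 for Tpx2 had the opposite sign. The group held exceptions: Cdc20, which activates the anaphase ligase, had 4245 and 2847, and Incenp, of the chromosomal passenger complex, 7009 and 5131. Mki67, the proliferation antigen, had 2650 and 3836, and Bub3 was nearest to 0, with 5987 and 6081. The CCAAT motif stood in 25 of the 33 mitosis genes with a listed promoter, or 75.8%, as in Kif11 and Ect2 above, and in 37.9% of all 27025 promoters. This match by letters is a description of the windows.

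DNA replication genes leaned the same way. Of 46 measured, 37 were higher in ST-HSC and 9 (19.6%) at least 2-fold, against 1 (2.17%) in LT-HSC, and the median was -0.44. Prim1, a primase subunit, had 2366 and 6383, 2.70-fold, Lig1, the ligase that joins Okazaki fragments, 1616 and 4311, 2.67-fold, and Rfc5, a subunit of the clamp loader, 857.4 and 3248, 3.79-fold. The replicative helicase subunits differed less: Mcm2 had 2500 and 5547, but Mcm5, nearest to 0, had 4304 and 4368 and Mcm6 10689 and 10124. The exception past 4-fold was Ccne1, the cyclin of the G1 to S step, with 1512 in LT-HSC and 268.5 in ST-HSC, 5.63-fold, and 464.0 and 310.1 at its other probe set. CCAAT stood in 24 of 38 replication promoters, 63.2%.

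Regulators of G1 and quiescence did not form one block. Of 20 G1 cyclins, kinases and E2F factors, 3 were at least 2-fold higher in LT-HSC (15%) and 4 in ST-HSC (20%), with a median of -0.31. E2f2 had 2092 and 453.4, 4.61-fold higher in LT-HSC, and Ccnd3 954.5 and 382.1, while Ccnd1 had 417.1 and 1166 and E2f1 295.5 and 734.9. Cdk6, the kinase whose level sets how fast stem cells leave quiescence, had 6634 and 15134, 2.28-fold, but 4089 and 3481 at its other probe set. E2f5 was nearest to 0, with 2206 and 2141. Of 27 cell cycle inhibitors and quiescence genes, 2 (7.41%) and 3 (11.1%) passed 2-fold, near the background. Cdkn1c has been given. Cdkn1a (p21) had 5473 and 4877 and Cdkn1b (p27) 397.6 and 335.0, and Ptprs was nearest to 0, with 3641 and 3706. Foxo1, a factor that protects quiescent cells, had 2940 and 1327, 2.22-fold higher in LT-HSC, while Klf4 had 603.2 and 2777, 4.60-fold higher in ST-HSC at this probe set and 342.9 and 1338 at its other.

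Ribosome biogenesis genes were shifted by a small amount in nearly every member. Of 36 measured, 32 were higher in ST-HSC, with a median of -0.62, and 5 (13.9%) at least 2-fold, or 3 to 7 over the other scalings, against 1 (2.78%) in LT-HSC. Gnl3, the nucleolar GTPase nucleostemin, had 4311 and 11648, 2.70-fold, Tsr1 4970 and 12125, 2.44-fold, and Nop58, a core protein of box C/D particles, 898.0 and 2369, 2.64-fold. Npm1, the abundant nucleolar chaperone, had 12244 and 18310, and Polr1e was nearest to 0. The motif CACGTG, the letters of the E-box that MYC binds, stood in 8 of 31 promoters of this list (25.8%) and in 7.24% of all promoters and 9.97% of those of the measured genes. CACGTG also stood in 20.7% of the immediate early, 13.2% of the replication and 6.06% of the mitosis promoters. TTCCGG stood in 45.2% of the ribosome biogenesis promoters and 27.1% of those of the measured genes. Myc itself had 385.8 and 640.6 (-0.73), close in size to the SD of 0.70 between probe sets at such signals. Any part of MYC in the difference was not tested. Cytosolic ribosomal proteins, the products that such factors assemble, were steadier. Of 44, 0 passed 2-fold in either direction, and the median was -0.17, which ranged from -0.30 to 0.04 over the other scalings. Mitochondrial ribosomal proteins had a median of -0.01 over 73 genes, oxidative phosphorylation -0.17 over 76 and the proteasome -0.21 over 38.

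**Figure D4:**
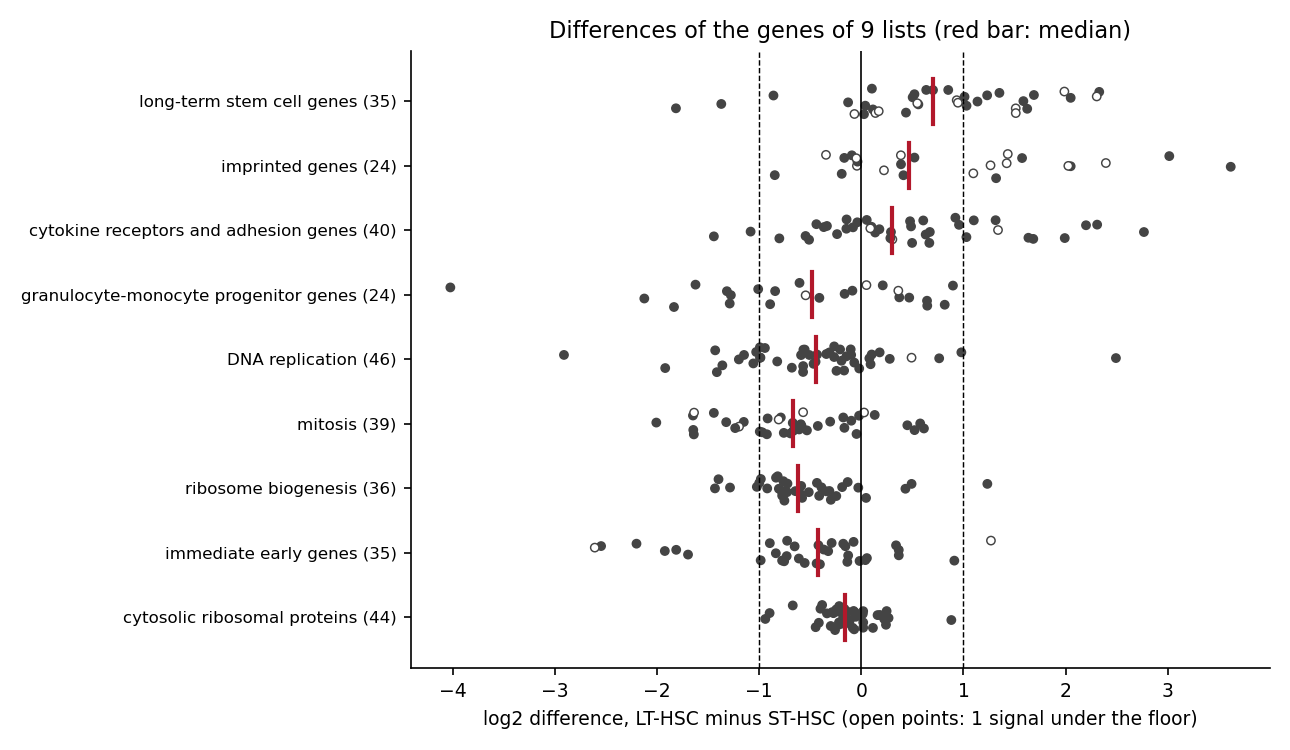
Log2 difference (LT-HSC minus ST-HSC) of each measured gene of 9 lists, with the list's median as a red bar, dashed lines at 2-fold and open points where 1 signal was under 120. Stem cell and imprinted genes spread to the right, mitosis and ribosome biogenesis genes cluster left of 0 around medians of -0.67 and -0.62, and the 44 ribosomal proteins all lie within 2-fold.

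Immediate early genes, which cells induce within minutes of a stimulus or of handling, were mostly higher in ST-HSC. Of 35 measured, 28 were higher there, 6 at least 2-fold (17.1%) and 3 at least 4-fold, against 1 (2.86%) at least 2-fold higher in LT-HSC, with a median of -0.42. Fosb, a partner of JUN, had 500.4 and 2929, 5.85-fold. Egr3, a zinc finger factor, had 42.9 and 733.2, at least 6.11-fold, with a second probe set at -0.68. The third was Klf4. Fos had 1578 and 5119, 3.24-fold, and Nr4a3, an orphan nuclear receptor, 814.4 and 3093, 3.80-fold. Jun (3284 and 4826) and Egr1 (3411 and 6096) differed by less than 2-fold, and Zfp36 was nearest to 0, with 4979 and 5041. Of 24 heat shock genes and chaperones, 17 were higher in ST-HSC, with a median of -0.24, while 3 (12.5%) were at least 2-fold higher in LT-HSC, near the background, and 0 in ST-HSC. The stress-induced Hspa1a had 14508 and 5318 and Hspa1b 19630 and 7848, while the constitutive Hsp90aa1 had 20231 and 20466, nearest to 0. Whether handling of the 2 samples differed was not tested.

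Imprinted genes, which are expressed from 1 parental copy and include growth regulators held to be a feature of long-term stem cells, had a large share 2-fold higher in LT-HSC, as the stem cell genes did. Of 24 measured, 11 (45.8%) were at least 2-fold higher in LT-HSC, 5 at least 4-fold, and 0 were 2-fold higher in ST-HSC, with a median of 0.47. Grb10, an adaptor that dampens growth factor receptors, had 3325 in LT-HSC and 270.9 in ST-HSC, 12.3-fold, and 460.2 and 146.5 at its other probe set. Meg3, a long noncoding RNA of the Dlk1 domain, had 1965 and 242.9, 8.09-fold, and of its 7 other probe sets 6 were higher in LT-HSC. The sign of those with ST-HSC signals of 92.4 and 92.8 was fixed by the entry rule. Phlda2 had 630.9 and 104.4, at least 5.26-fold, Cdkn1c 4.14-fold as above, and Plagl1, a zinc finger factor that regulates other imprinted genes, 489.0 and 96.2, at least 4.08-fold. The other probe set of Plagl1 had 144.7 and 115.0.

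Further imprinted genes past 2-fold had lower signals. Rian, which neighbours Meg3, had 478.4 and 191.7, 2.50-fold, and Dlk1 256.6 and 100.9, at least 2.14-fold. Igf2, a growth factor, had 321.8 and 50.5, at least 2.68-fold, and Igf2r, the receptor that removes it, 590.3 and 198.3, 2.98-fold. Mirg, of the Meg3 domain as well, had 131.0 and 134.5, nearest to 0, Kcnq1ot1, the noncoding RNA of the Cdkn1c domain, 816.1 and 870.8, and Gnas 13143 and 14760. Peg3, Peg10 and Snrpn were under 120 on both arrays, so no difference could be given. Cdkn1c and Ndn stand both here and among the stem cell genes.

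Receptors and adhesion molecules, through which stem cells read and hold to their niche, were more often higher in LT-HSC. Of 40 measured, 10 (25.0%) were at least 2-fold higher in LT-HSC and 2 (5.0%) in ST-HSC, with a median of 0.30. Itga5, a fibronectin receptor chain, had 1415 and 207.8, 6.81-fold, with 167.5 and 127.8 at its other probe set. Cxcr4, the receptor of the niche chemokine CXCL12, had 5240 and 1057, 4.96-fold, and Eng, a co-receptor of transforming growth factor beta, 2360 and 513.7, 4.60-fold. Cd9, a tetraspanin, had 3425 and 1066 and Selplg, the selectin ligand, 7176 and 2309, while Ptger4, a prostaglandin receptor, had 2990 and 8139, 2.72-fold higher in ST-HSC. Itgb1 was nearest to 0, with 1180 and 1213. Cxcr4, Cd9 and Selplg had granulocyte signals of 5914, 12509 and 16993, above both stem cell arrays, whereas Eng (28.1) and Itga5 (31.0) were under 120 there.

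**Figure D5:**
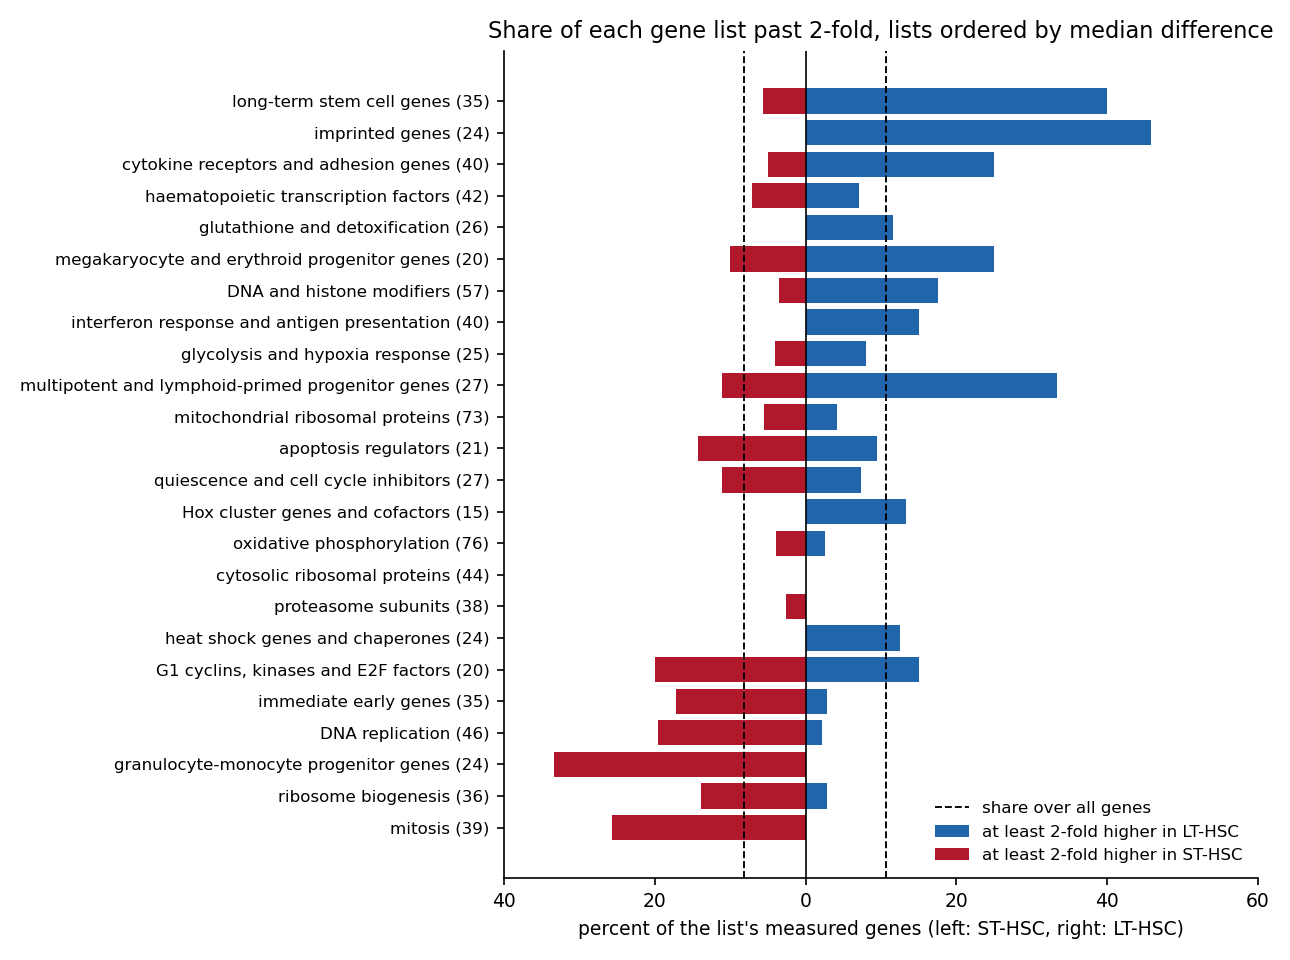
Percent of each theme list's measured genes that were at least 2-fold higher in LT-HSC (blue, right) or in ST-HSC (red, left), ordered by the list's median difference, with dashed lines at the shares over all genes (10.7% and 8.15%) and the number of genes in brackets. Imprinted and stem cell genes exceed the right line by most, and granulocyte-monocyte progenitor and mitosis genes exceed the left line by most.

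The lists with the largest medians kept their sign under all 5 other scalings of the arrays. The median of the stem cell genes lay between 0.57 and 0.96, that of the imprinted genes between 0.35 and 0.72, that of the mitosis genes between -0.80 and -0.47 and that of ribosome biogenesis between -0.76 and -0.43. Several lists with a median near 0 did not. The sign turned under at least 1 scaling for the lists of multipotent, of megakaryocyte and erythroid progenitors, quiescence, glycolysis, interferon response, Hox genes, DNA and histone modifiers, apoptosis, detoxification, both kinds of ribosomal protein and oxidative phosphorylation, for the sorting antigens and for the eosinophil, basophil and mast cell markers. Counts past 2-fold moved as well: over the scalings, 2 to 6 transcription factors were higher in LT-HSC and 0 to 3 in ST-HSC, 2 to 6 glycolysis genes were higher in LT-HSC, and 3 to 5 quiescence genes, 2 to 4 DNA and histone modifiers and 0 to 4 apoptosis regulators were higher in ST-HSC.

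Enzymes that write and erase DNA and histone marks were chosen because the cells served as nuclear donors. Of 57 measured, 10 (17.5%) were at least 2-fold higher in LT-HSC and 2 (3.51%) in ST-HSC, with a median of 0.03. The demethylase Kdm1a had 9539 and 3709, 2.57-fold, with 2190 and 964.5 at its other probe set, and Kdm5b 1736 and 487.4, 3.56-fold. Of the 3 other probe sets of Kdm5b, 1 had the opposite sign. Hdac11, a deacetylase, had 485.8 and 98.8, at least 4.05-fold, and its other probe set was higher in LT-HSC by less than 2-fold. Cbx7, a Polycomb reader, had 688.8 and 59.5, at least 5.74-fold, but 142.1 and 187.2 at its other probe set. The glycosylase Mbd4 had 110.3 and 491.0, at least 4.09-fold higher in ST-HSC, with a probe set of the opposite sign. The DNA methyltransferases differed by less than 2-fold: Dnmt1, the maintenance enzyme, had 4615 and 7307, Dnmt3a 1706 and 1799 and Dnmt3b 9514 and 10540. Phc1 was nearest to 0, with 2682 and 2665.

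The remaining lists lay near the background or held few members past 2-fold. Interferon response and antigen presentation genes had 6 of 40 (15%) higher in LT-HSC and 0 in ST-HSC, among them the class II gene H2-Aa (2535 and 740.7), with B2m nearest to 0 (16029 and 16015). Glutathione and detoxification genes had 3 of 26 and 0, led by haem oxygenase, Hmox1 (599.6 and 23.6, at least 5.0-fold). Glycolysis and hypoxia genes had 2 and 1 of 25, led by Pdk4 (783.5 and 17.4, at least 6.53-fold), a kinase that inhibits pyruvate dehydrogenase. Apoptosis regulators had 2 and 3 of 21, with the death activator Bmf at 2297 and 463.8, 4.95-fold. Of 15 Hox genes and cofactors, 2 passed 2-fold, Hoxb2 (500.1 and 142.6) and Hoxb4, while Hoxa9 had 8582 and 9430. The nearest to 0 in these lists were Gstm5, Hk1, Bad and Hoxc6.

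Markers of further cell types were examined in the same way. Of 13 monocyte and macrophage markers, 6 reached 120 in LT-HSC and 9 in ST-HSC, with sums of 1948 and 3058 against 32481 in granulocytes, and C1qa, C1qb and C1qc were under 120 on both. Mpeg1, a macrophage pore protein, had 115.4 and 651.5, at least 5.43-fold higher in ST-HSC. Of 11 eosinophil, basophil and mast cell markers, 1 and 3 reached 120, with sums of 873 and 847. Of 5 mature erythroid markers, 1 reached 120 on each, with sums of 1813 and 1428 against 1210 in HPC and 917 in granulocytes. That marker was Bpgm (1634 and 1295), while Hba-a1, a haemoglobin chain, had 73.1 and 66.3. Of 11 stromal and endothelial markers, 5 and 8 reached 120, with sums of 4494 and 2579, above the 1687 in HPC and 2132 in granulocytes. Col1a2 was the member past 4-fold, with 713.6 and 172.4, while Cdh5 and Plvap were under 120 on both. Of 13 oocyte markers, 3 and 2 reached 120, with sums of 1211 and 974, and of 9 cumulus cell markers 3 and 2, with sums of 1156 and 808, although the cells had been packed into egg coats. The part of these cells in the differences was not tested. The Y-linked Eif2s3y had 1866 and 826.6, and Xist 182.5 and 187.1.

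Over the genes past 4-fold as a whole, the 2 arrays outside the comparison had intermediate levels. The genes were chosen for lying far apart on the 2 stem cell arrays, so intermediate medians elsewhere follow in part from that choice. The 243 genes higher in LT-HSC had a median signal of 972 in LT-HSC, 126.4 in ST-HSC, 311.3 in HPC and 162.5 in granulocytes. The 129 genes higher in ST-HSC had medians of 171.5, 868, 367.8 and 240.2. Granulocyte signals at least 4 times the higher stem cell signal belonged to 12 of the 243 genes (4.94%), 11 of the 129 (8.53%) and 3.63% of all genes. In the promoters of the genes past 4-fold, TTCCGG, the letters of an ETS factor motif, stood in 31 of 192 (16.1%) higher in LT-HSC and 30 of 112 (26.8%) higher in ST-HSC, against 15.2% of all promoters and 27.1% of those of the measured genes. TATAAA stood in 9.90% and 9.82%, against 7.70% of the measured genes, and CCAAT in 37.0% and 39.3%.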

How the data were processed

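Each array was labelled RNA of 1 cell type, per the labels' protocols. What the authors deposited is 1 linear intensity per probe set and array. For the summary software and any detection calls, the method is not given in the sources used here. Values were used as deposited, set to a floor of 120 and taken to log2. Of 45037 non-control probe sets, 34945 had 1 gene symbol in GEO's platform annotation, 932 several and 9160 none used here. Of the 34945, 34741 matched RefSeq (GRCm38.p6) by Entrez number. Each gene took the member probe set with the highest mean log2 signal on the 2 arrays. Just inside and outside the rule, the higher signals were 120.0 and 119.9. With 1 array per cell type there is no test or p-value, and differences are given beside the SD between probe sets of 1 gene. The members and lists were chosen with earlier results of these data known.

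Named genes were the 15 largest differences in each direction whose higher signal reached its array's 75th percentile and whose other probe sets had the same sign, with unnamed clones and predicted genes passed over; all sorting antigens; and in each list the members past 4-fold and the one nearest to 0. Further members were named as examples after their values had been seen. Promoters are the first listed per gene. Up to 14 alternatives were run for each result, fewer where one gave no value for a gene, and 2 more for the counts. The procedure was tested on simulated data. Python 3.11.15, numpy 2.4.6, pandas 2.3.3, statsmodels 0.14.6 and matplotlib 3.10.9 were used.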

Additional observations from a re-analysis of the deposited data

How the results depend on the processing

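The counts of 243 and 129 genes past 4-fold moved with how dim signals were treated. They were 406 and 235 with the floor at 60, 129 and 60 with the floor at 240, and 146 and 49 with log2(signal + 120) and no floor. With both signals required to reach 120, 124 genes were higher in LT-HSC. Under the other settings fixed at the start, both counts stayed within 1.5 times, and of the 243 and 129 genes, 213 and 129 kept the call after scaling to the member median, 243 and 87 after scaling to the hybridization controls, and 153 and 87 with the median over probe sets. Chosen after seeing the data, leaving out genes much brighter in granulocytes gave 231 and 118, and leaving out the neutrophil, B-lineage and T and NK markers gave 230 and 129. Both settings only take the chosen genes off the counts. The part of other cells in the remaining genes was not tested. The Cd34 difference ranged from -2.17 to -1.84. Of 67 named genes, 3 changed sign: Cbx7 to -0.40 with both signals at 120 or more, and Mbd4 to 0.40 and Slc14a1 to 0.15 with the first probe set by name. The T and NK marker median changed sign to -0.02 without the probe sets named _x_at, _s_at or _a_at. The causes were not tested. No paired analysis was possible because each cell type has 1 array. Depth is not defined for arrays, and 1 array a side limits the precision. Signals near 120 limit what can be ordered.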

Other observations

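Among 197 families formed from the letters before the first digit of a symbol, with 8 or more measured genes each, the GTPases of immunity-associated proteins (Gimap) had the highest median difference, 0.98, and the Cxcl chemokines the lowest, -1.02. Both families were picked after their values had been seen. Of 8 Gimap genes, 4 were at least 2-fold higher in LT-HSC. Gimap4 had 3470 in LT-HSC and 381.8 in ST-HSC, 9.09-fold, Gimap5 640.9 and 76.4, at least 5.34-fold, Gimap3 511.4 and 142.3, and Gimap8 2376 and 1111. Gimap6 (3501 and 3121) and Gimap9 (1836 and 1764) were close on the 2 arrays. Over the other scalings the family's median lay between 0.84 and 1.17.

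Of 9 Cxcl genes, 5 were at least 2-fold higher in ST-HSC, or 3 to 5 over the other scalings, and 1 in LT-HSC. For 4 of the 5 the LT-HSC signal was under 120. Cxcl2, a chemoattractant of neutrophils, had 554.3 in LT-HSC and 2348 in ST-HSC, 4.24-fold, and 34434 in granulocytes. Cxcl10 had 89.1 and 445.2 and Cxcl3 29.0 and 428.2, both bounds, and Cxcl11 was the exception, with 511.7 and 28.3, at least 4.26-fold higher in LT-HSC. The family's median lay between -1.15 and -0.87 over the other scalings. Subunits and regulators of phosphoinositide kinases (the Pik symbols) had 5 of 13 at least 2-fold higher in LT-HSC, or 3 to 5 over the other scalings, and 0 in ST-HSC, with Pik3cd at 2596 and 1177 and Pik3r4 at 1934 and 769.9.

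Hivep3, a zinc finger protein, had 3967 in LT-HSC and 98.4 in ST-HSC, at least 33.1-fold, but stood outside the leading genes because both of its other probe sets had the opposite sign.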
